A study of Homo sapiens with 8 samples.

Results

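The apolipoprotein genes encode the protein part of lipoproteins, the particles that carry fat and cholesterol in blood. The 10 genes taken here, by name, were APOA1, APOA2, APOA4, APOB, APOC1, APOC2, APOC3, APOE, APOH and APOM, of 26830 gene symbols in the deposited table, and all 10 were listed in it. Their values were read in all 8 libraries.

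The cells were labelled HEK293T, a human embryonic kidney line, from which 1 clone expressing the nuclease Cas9 had been taken. A guide RNA leads Cas9 to the gene it cuts. There were 3 cultures with different lentiviral guides against METTL16, an RNA methyltransferase (sgMETTL16-1, sgMETTL16-2 and sgMETTL16-3), and 1 culture with a negative control guide (sgNS). Selection with puromycin (2 µg/ml) and blasticidin (10 µg/ml) lasted 1 week or longer in all 4 cultures, and cycloheximide, which stalls ribosomes, was added at 100 µg/ml for 5 min before lysis. Each culture gave a library of ribosome footprints, the fragments of 17 to 34 nt that ribosomes protect, and a library of input RNA, so that translation could be set against RNA level. The cells are 1 clone of 1 line, each guide is 1 culture, and the table holds TPM, in which each gene has a share of its library after division by length, so depth is unknown. In comparisons between guides, the spread behind each p-value is that of 3 cultures with different guides, and the lone sgNS culture is assumed to vary like them. The comparison of footprints with input pooled all 4 cultures, sgNS included. In the input comparison between guides, each gene took the spread typical of genes at its level, in place of its own. In such bulk samples fewer cells of a type and less RNA per cell cannot be told apart. Values of sgMETTL16 are given in the order sgMETTL16-1, sgMETTL16-2, sgMETTL16-3 throughout.

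Apolipoproteins are made mainly by hepatocytes and, for some members, by enterocytes of the small intestine. APOB is the large structural protein around which very low density lipoprotein is built. APOA1 and APOA2 are the main proteins of high density lipoprotein. APOE is the ligand by which liver receptors take up remnant particles, and the small exchangeable APOC proteins tune the lipases that empty the particles.

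Before the results, 3 facts about the libraries bear on all of them. METTL16 RNA was at 4.72, 5.25 and 4.16 TPM in sgMETTL16 inputs, against 5.31 TPM in the sgNS input, and its footprints were listed at 0 in all 3 sgMETTL16 libraries, against 19.8 TPM in sgNS. The same footprint pattern held for at least 543 of the 9297 genes tested in footprints (5.84%). Neither an RNA level nor a footprint value of 0 shows whether a guide cut its gene. Liver transcripts were abundant although the labels name a kidney line: 12 of 16 hepatocyte markers stood at 10 TPM or more in every input, while HEK293 markers were mixed. Of 12 such markers 6 stayed below 1 TPM in all inputs, and 4 of these, NEFL, NEFM, SOX11 and VIM, were listed at 0. KRT8 (354.1 to 795.6 TPM), KRT18 (309.0 to 536.7 TPM) and PEG10 (305.1 to 594.6 TPM) were high in every input. The identity of the cells was not tested. VIM, listed at 0 in every input, had footprints of 43.3 to 188.1 TPM in all 4 libraries, so a listed 0 cannot be read as absence. Summed hepatocyte markers reached 7716, 7741 and 4817 TPM in sgMETTL16 inputs, against 3971 TPM in the sgNS input, and the part of this difference in the members' values was not tested. Of markers of the other cell types that make apolipoproteins, 11 of 13 for enterocytes, 9 of 10 for proximal tubule and 8 of 11 for macrophages were under 1 TPM in every input. Those that were not included LYZ, at 193.7 to 619.7 TPM, and CD68, at 16.3 to 47.1 TPM, of the macrophage list. The footprint libraries were sparse, with 4362 to 6735 genes above 0, against 17982 to 18805 in the inputs, and protein-coding genes held only 11.9% of the sgMETTL16-3 footprint TPM, against 26.8% to 28.2% in the other 3 footprint libraries.

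Of the 10 apolipoprotein genes, 9 were strongly expressed in the input RNA and APOA4 was close to silent. The order of their mean input TPM over the 4 cultures ran from APOA2 through APOA1, APOE, APOB, APOC1, APOM, APOH and APOC2 to APOC3, with APOA4 far below. APOA2 was at 2486, 2687 and 1834 TPM in sgMETTL16 inputs, against 1797 TPM in the sgNS input, and it ranked 2 or 3 among protein-coding genes in every input. APOA1 was at 1285, 1168 and 1228 TPM in sgMETTL16, against 1062 TPM in sgNS, and had the smallest spread of the 10 genes (coefficient of variation 8.06%, n = 4 cultures). APOE was at 963.9, 960.6 and 1009.7 TPM in sgMETTL16, against 682.9 TPM in sgNS. The ranges of these 3 genes over the 4 inputs did not overlap, so their order held in every input.

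APOB was at 656.6, 592.9 and 304.9 TPM in sgMETTL16 inputs, against 291.6 TPM in the sgNS input. It was high in sgMETTL16-1 and sgMETTL16-2 only, and sgMETTL16-3 was close to sgNS. APOH, also called beta-2-glycoprotein I, a plasma protein that binds acidic phospholipids, was at 214.3, 280.4 and 107.9 TPM in sgMETTL16, against 140.2 TPM in sgNS, and was also highest in sgMETTL16-1 and sgMETTL16-2. Protein-coding genes as a whole took 25.4%, 26.3% and 20.1% of input TPM in sgMETTL16, against 20.3% in sgNS, so that share divides the cultures in the same way, and its part in these values was not tested.

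APOC1, an inhibitor of lipoprotein uptake and of cholesteryl ester transfer, was at 332.8, 282.0 and 260.7 TPM in sgMETTL16 inputs, against 249.4 TPM in sgNS. APOM, which carries sphingosine-1-phosphate on high density lipoprotein, was at 359.8, 215.6 and 204.7 TPM in sgMETTL16, against 198.6 TPM in sgNS. From APOB down to APOC2 the ranges of neighbours in the order overlapped, so the ranking among APOB, APOC1, APOM, APOH and APOC2 is not separated from the spread between cultures. APOC2, the activator of lipoprotein lipase, was at 156.7, 107.0 and 97.4 TPM in sgMETTL16, against 149.2 TPM in sgNS. APOC3, which slows lipoprotein lipase and particle clearance, was at 78.0, 52.4 and 58.9 TPM in sgMETTL16, against 81.5 TPM in sgNS. These 2 genes were lower than sgNS in sgMETTL16-2 and sgMETTL16-3 by the deposited values, while in sgMETTL16-1 APOC2 was slightly above sgNS and APOC3 slightly below.

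APOA4, which is made chiefly by enterocytes, was at 0.80, 0.47 and 0.49 TPM in sgMETTL16 inputs, against 1.10 TPM in sgNS, and was listed at 0 in all 4 footprint libraries. Its low level contrasts with its neighbours. APOA4, APOC3 and APOA1 lie side by side within 16.9 kb on chromosome 11 (GRCh38, 116820700 to 116837622), with APOA5 next to them. APOA5, a regulator of plasma triglyceride, was at 9.79, 6.70 and 6.43 TPM in the sgMETTL16 inputs, against 8.09 TPM in sgNS. In the same input, APOA1 exceeded APOC3 16.5-fold, 22.3-fold and 20.9-fold in sgMETTL16, and 13.0-fold in sgNS. The enterocyte markers were likewise near 0 except for villin, VIL1, at 41.6 to 76.6 TPM over the 4 inputs.

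The other cluster, on chromosome 19 (44905796 to 44949565), spans 43.8 kb and holds APOE, APOC1, APOC4 and APOC2. APOC4 sits between 2 well expressed members but was at 0.26, 0.17 and 0.39 TPM in the sgMETTL16 inputs, against 0.36 TPM in sgNS. The readthrough transcript APOC4-APOC2, whose reads can be confused with those of APOC2, was at 0.08 to 0.52 TPM over the 4 inputs. APOC1P1, a pseudogene copy of APOC1, was at 6.49 to 11.02 TPM, and reads shared between them cannot be separated in these values. The remaining members are single genes: APOA2 on chromosome 1 (161222292 to 161223628), APOB on chromosome 2 (21001429 to 21044073), APOM on chromosome 6 (31652404 to 31658210) and APOH on chromosome 17 (66212033 to 66229415).

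Promoter windows of the 250 bases before the start were read from RefSeq (GRCh38.p14) for 7 members: APOA2, APOA4, APOC1, APOC2, APOE, APOH and APOM. Those of the silent APOA4, the most abundant APOA2 and APOH, which had the highest footprint to input ratio, are shown, 5′ to 3′ on the gene's strand. The windows were searched for 4 motifs: AAAGTCCA and AAAGGTCA, letters bound by the HNF4 nuclear receptors, and GTTAAT, letters found in sites of the HNF1 factors, on both strands, and TATAAA, the TATA box letters, on the gene's strand. Capitals mark matches.
APOA4 (chr11:116823305-116823554, minus strand): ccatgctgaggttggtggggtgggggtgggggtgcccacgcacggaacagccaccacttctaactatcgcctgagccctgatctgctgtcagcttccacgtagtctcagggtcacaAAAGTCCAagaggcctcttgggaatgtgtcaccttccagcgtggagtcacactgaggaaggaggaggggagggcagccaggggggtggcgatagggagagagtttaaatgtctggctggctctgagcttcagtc
APOH (chr17:66229416-66229665, minus strand): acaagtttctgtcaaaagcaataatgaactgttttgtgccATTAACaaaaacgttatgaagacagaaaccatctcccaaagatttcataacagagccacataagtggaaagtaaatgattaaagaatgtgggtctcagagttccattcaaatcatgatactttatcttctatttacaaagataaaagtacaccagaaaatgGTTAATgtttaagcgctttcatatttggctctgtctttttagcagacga
APOA2 (chr1:161223629-161223878, minus strand): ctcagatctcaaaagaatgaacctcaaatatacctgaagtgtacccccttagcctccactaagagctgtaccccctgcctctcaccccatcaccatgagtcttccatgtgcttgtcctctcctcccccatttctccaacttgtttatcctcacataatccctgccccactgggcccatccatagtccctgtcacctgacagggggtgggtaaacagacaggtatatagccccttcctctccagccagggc
AAAGTCCA was 134 bases before the start of APOA4, alone among the 7 members, and in 0.797% of 22199 protein-coding promoter windows. GTTAAT, on either strand, stood at 2 places in the APOH window and occurred in 5.15% of windows. TATAAA was found 30 bases before the start of APOC2 (6.18% of windows) and AAAGGTCA in none of the members (0.937% of windows). None of the 4 motifs was in the APOA2 window, although this gene had the highest level, and a match is a description of letters, not of binding. The windows of APOC1 (44914422 to 44914671) and APOM (31655644 to 31655893) lie after the first base of the gene as placed (44914325 and 31652404). APOE had more than 1 window, and only the first lies before the gene. For these genes a lack of a match does not describe the bases before the gene's first base alone.

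Together the 10 genes held 2.57%, 2.41% and 2.54% of protein-coding input TPM in sgMETTL16, against 2.30% in sgNS. In the footprints they held 2.50%, 2.02% and 1.23% of protein-coding TPM in sgMETTL16, against 1.11% in sgNS. The footprint share was thus close in sgMETTL16-3 and sgNS and higher in the other 2 cultures. APOA1, APOA2 and APOE made up 72.5% to 79.7% of the summed input TPM of the 10 genes over the 4 cultures and 42.1% to 56.1% of their footprint TPM.

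**Figure D1:**
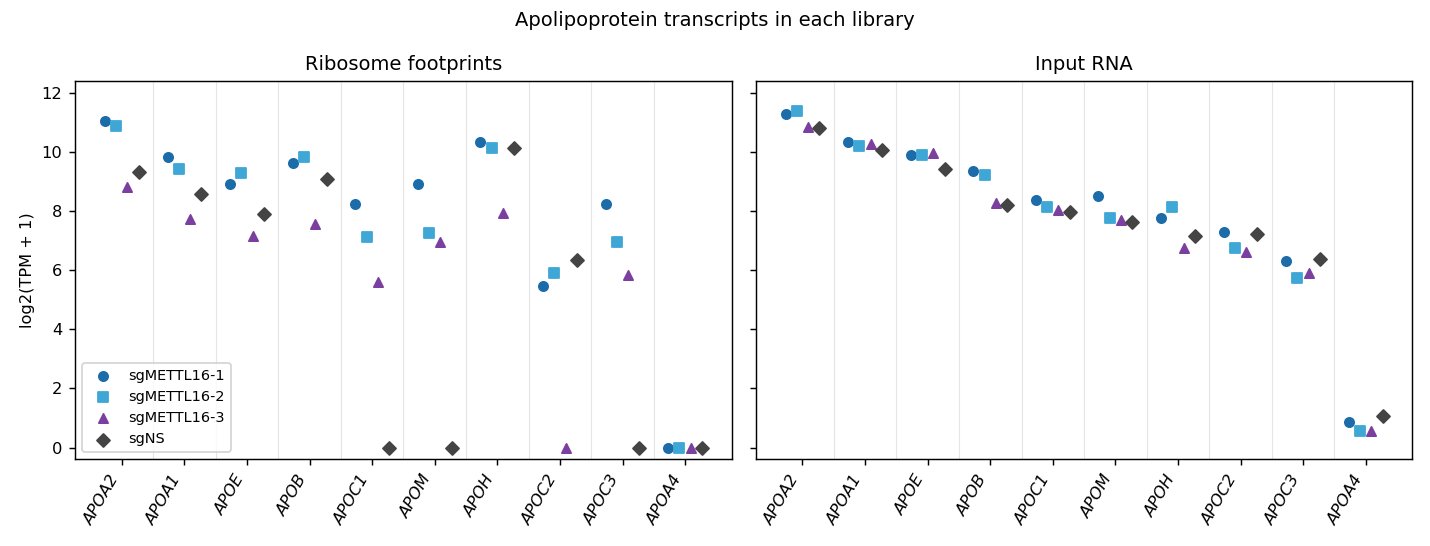
Level of each apolipoprotein gene, as log2(TPM + 1), in the 4 footprint libraries (left) and the 4 input libraries (right). Each point is 1 library, and genes are ordered by mean input TPM. In the input 9 genes stand between 52.4 and 2687 TPM and APOA4 near 1 TPM, while in the footprints APOC1, APOC3 and APOM are at 0 in sgNS and APOC2 in sgMETTL16-3.

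**Figure D2:**
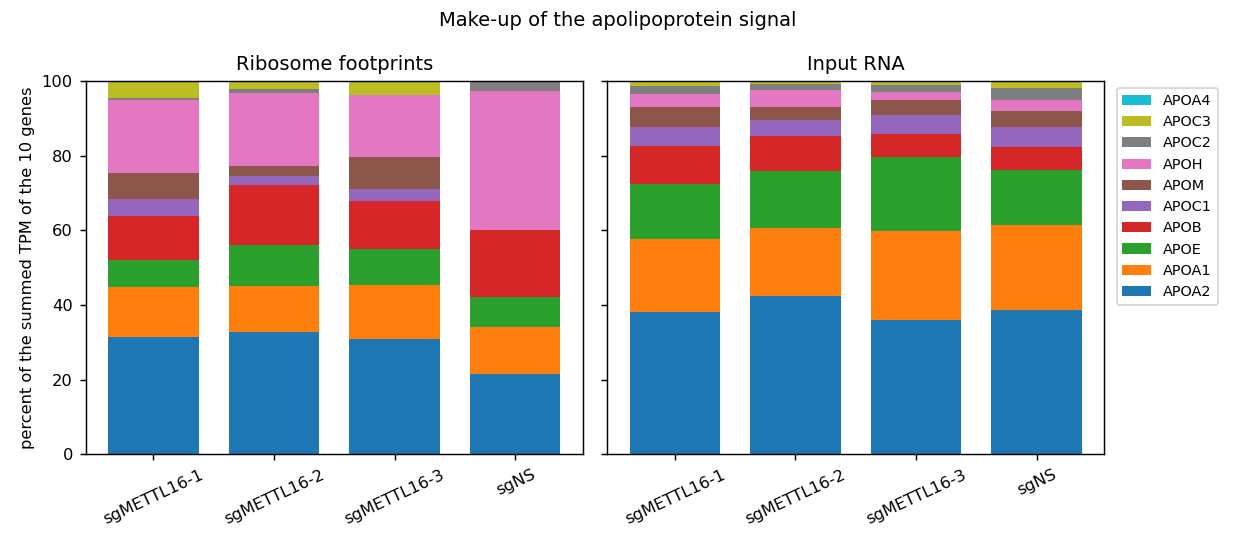
Share of each gene in the summed TPM of the 10 apolipoprotein genes, in percent, for each footprint library (left) and input library (right). APOH takes 16.5% to 37.2% of the footprint sum and 2.11% to 4.42% of the input sum.

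The first comparison asked whether apolipoprotein RNA differed between sgMETTL16 and sgNS cells. No apolipoprotein gene passed the threshold in the input, where 2.83% of 10967 tested genes did, 1.58% higher and 1.25% lower (limma on log2(TPM + 1), each library centred on its median gene, Benjamini-Hochberg adjusted p under 0.05). Of the 9 members tested, APOC3 and APOC2 stood furthest from 0. APOC3 averaged 63.1 ± 13.3 TPM in sgMETTL16 (SD, n = 3) and was at 81.5 TPM in sgNS (n = 1), a log2 change of -0.91 (SE 0.41, limma unadjusted p = 0.0243, adjusted p = 0.311). APOC2 averaged 120.3 ± 31.8 TPM in sgMETTL16 (SD, n = 3) and was at 149.2 TPM in sgNS, a log2 change of -0.87 (SE 0.42, limma unadjusted p = 0.0380, adjusted p = 0.395). After centring both were lower than sgNS in all 3 sgMETTL16 cultures. The log2 difference from sgNS was -0.70, -1.41 and -0.63 for APOC3 and -0.56, -1.26 and -0.78 for APOC2 in sgMETTL16.

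In total 4 of the 9 members, APOA2, APOC1, APOC2 and APOC3, were below sgNS in all 3 cultures after centring, where 34.2% of all tested genes were. The other 7 members had limma adjusted p between 0.919 and 0.998. APOB had the only positive fitted change (0.22, SE 0.45), with 0.53 and 0.24 in sgMETTL16-1 and sgMETTL16-2 and -0.11 in sgMETTL16-3. APOE, at -0.01, was above sgNS in sgMETTL16-3 (0.39) and below it in sgMETTL16-1 and sgMETTL16-2 (-0.14 and -0.29). The median change of the 9 members was -0.19, beside -0.06 for all tested genes. On TPM as deposited the median of all genes moved to 0.46 and that of the members to 0.34, where APOC3 (-0.38) and APOC2 (-0.34) were the only members below 0. Without sgMETTL16-3 both passed, APOC3 at -1.05 (limma adjusted p = 0.0102) and APOC2 at -0.91 (limma adjusted p = 0.0417). The mean input of APOA4 was under the filter of 1 TPM, so it was not tested there; it entered on TPM rescaled over protein-coding genes, with a log2 change of -1.33 (SE 0.39, limma adjusted p = 0.0367), and with no filter was at -0.80 (limma adjusted p = 0.275).

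**Figure D3:**
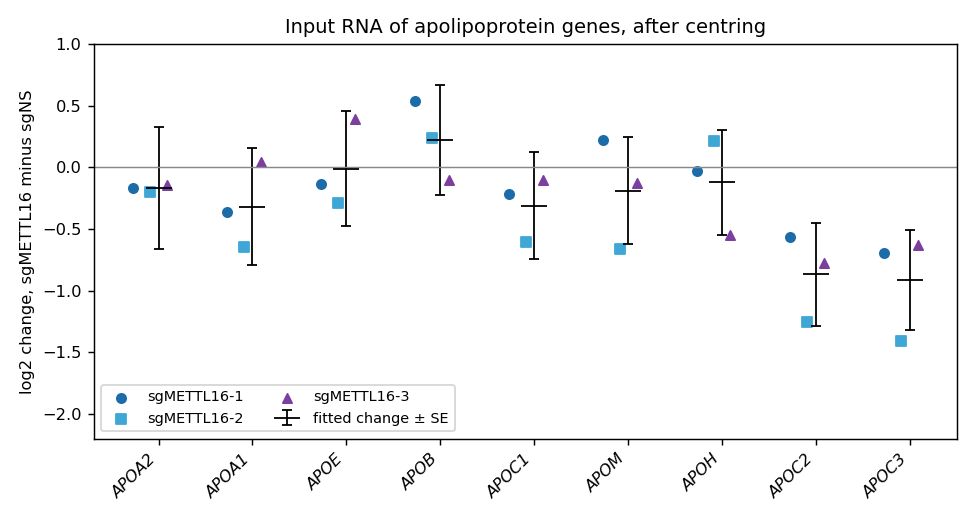
Log2 change of input RNA in sgMETTL16 against sgNS for the 9 tested apolipoprotein genes, after each library was centred on its median gene. Coloured points are the 3 sgMETTL16 cultures and black bars are the fitted change ± SE from limma. APOC3 (-0.91) and APOC2 (-0.87) lie furthest below 0, APOA2 and APOC1 also lie below 0 in every culture, and the other 5 genes have cultures on both sides of 0.

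Genes that assemble and remodel lipoproteins gave few calls in the input. Of 17 tested genes of lipoprotein assembly and secretion, none passed the threshold. MTTP, the microsomal protein that loads lipid onto APOB, was at 5.23, 4.28 and 1.71 TPM in sgMETTL16, against 2.09 TPM in sgNS, with a fitted log2 change of 0.00. Like APOB it was highest in sgMETTL16-1 and sgMETTL16-2. P4HB, the partner subunit of MTTP, was at 512.5, 369.5 and 295.4 TPM in sgMETTL16, against 461.6 TPM in sgNS.

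Of 15 tested lipases, transfer proteins and remodelling genes 1 rose. LIPC, hepatic lipase, was at 6.64, 10.3 and 5.99 TPM in sgMETTL16, against 1.57 TPM in sgNS (log2 change 1.19, SE 0.36, limma adjusted p = 0.0389). All 3 sgMETTL16 values lay above the sgNS value. LIPC did not pass without sgMETTL16-1 (1.31, limma adjusted p = 0.497), nor did it without centring (1.72 on deposited TPM, limma adjusted p = 0.224). Of 27 tested transcription factors known to act on apolipoprotein genes, none passed. HNF4A, the nuclear receptor required for many of these genes in liver, was at 100.0, 102.4 and 93.1 TPM in sgMETTL16, against 77.7 TPM in sgNS, and NR0B2, a repressor of bile acid genes, was at 189.8, 172.1 and 171.5 TPM in sgMETTL16, against 116.2 TPM in sgNS. The medians were -0.03 for assembly, 0.11 for lipases and -0.22 for transcription factors, beside -0.06 for all tested genes.

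Of 20 further apolipoprotein or related genes, 10 were under 1 TPM in every input and none of the 10 tested passed. Clusterin (CLU, also named APOJ) was at 158.9, 153.2 and 133.0 TPM in the sgMETTL16 inputs, against 86.2 TPM in sgNS. SAA4, a constitutive protein of high density lipoprotein, was at 84.6, 102.2 and 58.8 TPM in sgMETTL16, against 50.7 TPM in sgNS. APOL2 was at 14.8, 15.8 and 13.5 TPM in sgMETTL16, against 6.43 TPM in sgNS. Flanking genes of the 2 clusters did not pass either (0 of 11 tested), with TOMM40, next to APOE, at 108.6, 110.9 and 103.9 TPM in sgMETTL16, against 80.1 TPM in sgNS.

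The second comparison asked whether ribosome occupancy of these mRNAs differed with the guide. No member passed in the footprints, where 6.54% of 9297 genes did, 0.699% higher and 5.84% lower (limma on log2(scaled TPM + 1), each library divided by its median ratio over the 1870 genes above 0 in all 4). Of the 608 genes called, 543 were listed at 0 in all 3 sgMETTL16 libraries, 64 were listed at 0 in sgNS and 1 was above 0 on both sides. APOA2 footprints were at 2102, 1877 and 450.9 TPM in sgMETTL16, against 643.6 TPM in sgNS. APOA1 was at 899.9, 693.1 and 212.8 TPM in sgMETTL16, against 378.9 TPM in sgNS, and APOE at 479.8, 630.1 and 143.3 TPM in sgMETTL16, against 239.2 TPM in sgNS. In the deposited values the sgNS library fell between sgMETTL16-3 and the other 2 cultures for these 3 genes.

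After scaling, which raises sgMETTL16-3 relative to the other libraries, all 3 genes were above sgNS in every sgMETTL16 culture. Scaled APOA2 was at 1871, 1701 and 692.7 TPM in sgMETTL16, against 472.0 TPM in sgNS (log2 change 1.46, SE 0.80, limma adjusted p = 0.695). Scaled APOA1 was at 801.2, 627.9 and 326.8 TPM in sgMETTL16, against 277.9 TPM in sgNS (log2 change 0.98, SE 0.68), and scaled APOE at 427.1, 570.9 and 220.1 TPM in sgMETTL16, against 175.4 TPM in sgNS (1.10, SE 0.72). Neither of these passed (limma adjusted p = 0.695 for each). With APOC1, APOC3 and APOM, 6 of the 9 tested members were above sgNS in all 3 cultures, against 11.5% of tested genes. That share is over 9297 genes, many of which could not meet the rule, since sgMETTL16-3 had 4362 genes above 0. The share among genes as abundant as the members was not tested. The direction of APOA2, APOA1 and APOE turned when libraries were centred on the median tested gene in place of scaling.

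The footprints of APOB and APOH lay on both sides of sgNS. APOB was at 796.8, 917.2 and 187.9 TPM in sgMETTL16, against 537.4 TPM in sgNS (scaled log2 change 0.49, SE 0.83, limma adjusted p = 0.695). APOH was at 1303, 1116 and 241.7 TPM in sgMETTL16, against 1114 TPM in sgNS (-0.11, SE 0.90, limma adjusted p = 0.935). Both genes were lowest in sgMETTL16-3, the library with the smallest protein-coding share.

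APOC1, APOC3 and APOM had 0 TPM in sgNS footprints and were above 0 in all 3 sgMETTL16 libraries, a pattern shared by 6.65% of all tested genes, whatever their level. APOC1 was at 297.9, 137.6 and 47.1 TPM, APOC3 at 298.4, 124.0 and 56.6 TPM, and APOM at 480.6, 151.3 and 124.2 TPM in sgMETTL16. APOC2 had the other arrangement: 42.8 and 59.3 TPM in sgMETTL16-1 and sgMETTL16-2, 0 in sgMETTL16-3, and 81.2 TPM in sgNS. A 0 was common over a wide range of input that holds these genes. Of protein-coding genes with an input of 50 to 400 TPM in the same culture, 17.5%, 9.87% and 34.2% were listed at 0 in the footprints of sgMETTL16, against 27.3% in sgNS. In sgNS that range held 576 genes, while APOC1 ranked 116 and APOM 143 among coding genes by input, so most of the range lay below both. The share at their own level was not tested.

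The relative size of a step in different libraries was taken from a ratio that recurred among genes above 0 in a pair of libraries. Within 0.02 on the natural log scale, the sgNS value was 1.89 times that of sgMETTL16-1 for 28.5% of such genes, 2.73 times that of sgMETTL16-2 for 23.6% and 2.00 times that of sgMETTL16-3 for 33.7%. With each sgMETTL16 value multiplied by its ratio, and all then divided by 1 common step, the APOC1 values of sgMETTL16-1, sgMETTL16-2, sgMETTL16-3 and sgNS stood at 6, 4, 1 and 0 steps, with a largest deviation of 0.54%. APOC3 stood at 5, 3, 1 and 0 steps (deviation 0.67%), APOC2 at 1, 2, 0 and 1 (0.15%) and APOM at 11, 5, 3 and 0 (0.45%). For each gene the step was the largest that put all values above 0 within 3% of whole numbers, up to 12. The smallest value is thus set at 1 step wherever that fits. By this rule the 0 of APOC1 and APOC3 in sgNS stands beside a single step in sgMETTL16-3. A step was worth the most TPM in sgNS. How many reads a step holds was not tested.

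Translation efficiency, the footprint to input ratio compared between guides as an interaction over all 8 libraries, gave 2 calls among the 9 members, where 0.737% of 8002 genes were called, 0.550% higher and 0.187% lower. APOC3 and APOM were higher in sgMETTL16 (limma adjusted p = 0.0437 for each), and APOC1 was next (limma adjusted p = 0.0514). No fold is given, since sgNS footprints of all 3 were at 0, and all 59 genes called had footprints listed at 0 in sgNS (44) or in all 3 sgMETTL16 libraries (15). With the culture as a block, which pairs the footprint and input library of each culture, neither passed (limma adjusted p = 0.253 for APOC3 and 0.142 for APOM), and no gene of the 8002 passed (606 had an unadjusted limma p under 0.05). Neither passed under any other setting tried that still tested them, including leaving out any 1 sgMETTL16 culture (limma adjusted p from 0.0562 to 0.228 over those settings).

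The members with footprints in every library did not pass in translation efficiency (limma adjusted p from 0.724 to 0.995). APOA2 was at 1.63 (SE 0.84, limma adjusted p = 0.724), APOA1 at 1.30 (SE 0.81), APOE at 1.11 (SE 0.85), APOB at 0.27 (SE 0.93) and APOH at 0.01 (limma adjusted p = 0.995). The median was 0.71 over all tested genes, which include those with footprints at 0. Over the 1816 genes above 0 in all 4 footprint libraries, as these 5 members are, it was -0.04, and no gene passed there. The footprint to input ratio of deposited TPM for APOA2 was 0.846, 0.699 and 0.246 in sgMETTL16, against 0.358 in sgNS. For APOA1 it was 0.700, 0.593 and 0.173 in sgMETTL16, against 0.357 in sgNS. In both genes, on deposited TPM, sgMETTL16-3 was below sgNS and the other 2 cultures above it. After scaling of all 8 libraries by median ratios, all 3 sgMETTL16 cultures were above sgNS. The scaled ratio was 0.519, 0.501 and 0.151 for APOA2 in sgMETTL16, against 0.103 in sgNS. For APOA1 it was 0.43, 0.425 and 0.107 in sgMETTL16, against 0.103 in sgNS.

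The last comparison set footprints against input within the same cultures, where 32.2% of 7596 tested protein-coding genes passed. APOH was the only member with more footprints than input in all 4 cultures by the scaled ratio. It was at 3.73, 2.85 and 1.38 in sgMETTL16, against 2.29 in sgNS. Over the 4 cultures APOH footprints averaged 943.6 ± 476.3 TPM and its input 185.7 ± 77.3 TPM (SD, n = 4 each), a scaled log2 ratio of 1.26 (SE 0.36, limma adjusted p = 0.0249), where 3.19% of genes were called higher. APOH ranked 13, 23 and 76 among coding genes in the sgMETTL16 footprints and 19 in sgNS, against 159, 111 and 257 in the sgMETTL16 inputs and 190 in sgNS. The call was lost without sgMETTL16-1, sgMETTL16-2 or sgNS (limma adjusted p = 0.153, 0.114 and 0.0974), while the ratio stayed at 1.05, 1.17 and 1.35.

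APOE, APOA1, APOA2 and APOC2 were lower in footprints than in input, where 29.0% of tested genes were called lower. APOE averaged 373.1 ± 222.2 TPM in footprints and 904.3 ± 149.3 TPM in input (SD, n = 4 each), a scaled log2 ratio of -2.40 (SE 0.40, limma adjusted p = 0.00504). APOA1 was at -2.24 (SE 0.38, limma adjusted p = 0.00516), APOA2 at -1.98 (SE 0.41, limma adjusted p = 0.00826) and APOC2 at -3.50 (SE 1.07, limma adjusted p = 0.0316). None of the 4 passed on TPM as deposited, where APOE was at -1.48, APOA1 at -1.32, APOA2 at -1.07 and APOC2 at -2.54. APOA2 lost its call without sgMETTL16-3 (-1.73, limma adjusted p = 0.0809) or sgNS (-1.49, limma adjusted p = 0.0584), and APOC2 without sgMETTL16-1, sgMETTL16-2 or sgNS (-3.79, -4.21 and -3.72). The APOC2 ratio includes the 0 in sgMETTL16-3, and without that culture it was -2.16 (SE 0.46, limma adjusted p = 0.0413).

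APOB was at -0.64 (SE 0.35, limma adjusted p = 0.175), and its scaled ratio was 0.744, 1.11 and 0.379 in sgMETTL16, against 0.532 in sgNS. APOC1 (-3.59, SE 1.32, limma adjusted p = 0.0588), APOM (-2.80, SE 1.45) and APOC3 (-1.51, SE 1.35) did not pass, and their values include the 0 in sgNS. Without sgNS APOC1 was at -1.78 (SE 0.51), APOM at -0.83 (SE 0.48) and APOC3 at 0.47 (SE 0.53), and none of them passed (limma adjusted p = 0.0653, 0.263 and 0.573). APOC1 passed with the culture as a block (limma adjusted p = 0.0201). In the 3 sgMETTL16 cultures, where APOC3 was above 0, its scaled ratio was 2.35, 1.70 and 0.592, the highest of the members after APOH. APOC2 was at 0.168 and 0.398 in sgMETTL16-1 and sgMETTL16-2 and at 0.157 in sgNS, on the few steps given above.

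A low ratio was usual for abundant transcripts. Among the 321 protein-coding genes with a mean input of 100 TPM or more, a limit added after the values were seen, the median log2 ratio was -2.09, with 62.6% called lower and 8.41% called higher. Over all 7596 genes the median was -1.34. The limit is set on input, which is also the divisor of the ratio, and its part in the lower median was not tested. Of the 8 members in that stratum 5 were lower (APOA1, APOA2, APOC1, APOC2 and APOE) and APOH was higher, and their median was -2.32. The low ratios of APOA1, APOA2 and APOE therefore lie near the middle of abundant genes, and those of APOB and APOH lie above it. Of the hepatocyte markers tested, 4 of 13 were higher in footprints (FGG at 2.50, AFP at 2.08, ALB at 1.74 and FGB at 1.66) and 4 were lower, AHSG at -2.63 and SERPINA1 at -2.30 among them, so liver secretory mRNAs fell on both sides.

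**Figure D4:**
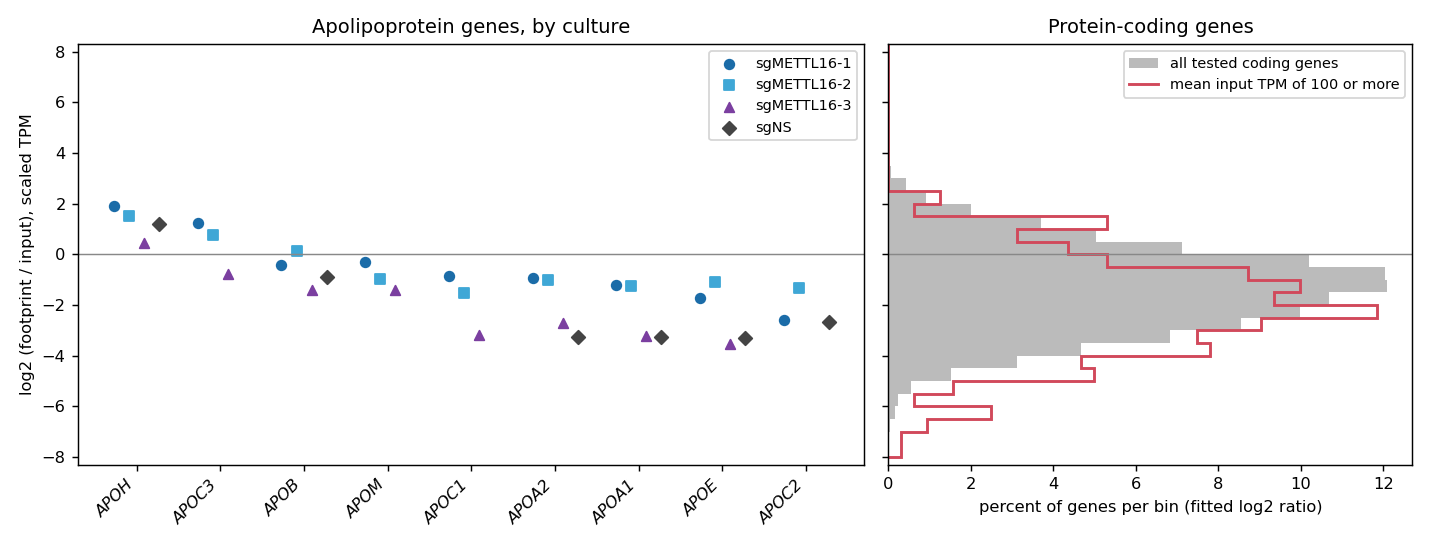
Left, the log2 ratio of scaled footprint to scaled input TPM for each apolipoprotein gene with footprints, 1 point per culture, ordered by median (libraries at 0 are not drawn). Right, the percent of protein-coding genes in each bin of the fitted log2 ratio, for all 7596 tested genes (grey) and the 321 with a mean input TPM of 100 or more (red). APOH lies above 0 in all 4 cultures, and APOA1, APOA2 and APOE lie below 0 in all 4.

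The genes whose levels over the 8 libraries were most like the mean profile of the 10 members were GALM, DHPS, FAM213A, SLC16A13 and RBM4B (Pearson r from 0.984 to 0.988 on log2(TPM + 1), over 8 libraries from 4 cultures, among 2823 candidates, with no p). All 5 were listed at 0 in the footprints of sgMETTL16-3 and sgNS. In sgMETTL16-1 and sgMETTL16-2 each gene had the same number of steps, which the rule above sets at 1. The members' mean centred profile was at -1.42 in the sgMETTL16-3 footprints and -2.05 in the sgNS footprints, its lowest values, against 0.31 to 0.81 in the inputs (log2). Since the 5 genes were picked by likeness to this profile, their low in the same libraries is set by that choice. The profile includes the 0 of APOC1, APOC3 and APOM in the sgNS footprints and of APOC2 in those of sgMETTL16-3. Candidates were allowed a 0 in a few libraries.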

How the data were processed

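RNA input and ribosome footprints of 4 cultures were deposited by the authors as TPM per gene symbol, made with STAR, of unstated version, and RSEM 1.2.31 on GRCh38, per the submitters' processing notes. TPM keep no depth, so no counting interval is given. From these values log2(TPM + 1) was fitted with limma 3.58.1 (R 4.3.3, intensity trend, Benjamini-Hochberg adjustment over all tested genes, threshold 0.05), without a replicate block. Genes entered with a mean of 1 TPM or more in the libraries compared (in each kind, where both were used). Input libraries were centred on the median tested gene. Footprint libraries were scaled by median ratios, since the median tested gene was at 0 in sgMETTL16-3 and sgNS. Input and footprint libraries of 1 culture are paired by the labels; the deviations of the same culture correlated at 0.0786, 0.0248 and -0.0164 over 1785 genes. All members were named, with up to 4 genes of each list that passed or, failing that, up to 3 of the most abundant, and HNF4A, MTTP, APOA5, APOC4 and APOC4-APOC2. ALB, FGB and SERPINA1 were added after their values were seen. Receptor and clearance genes are not reported here. The members and lists were chosen with earlier results of these data known. The fits were tested on simulated data in which a gene was at 0 in all libraries of a kind or in none. Calls that rest on a 0 on 1 side were therefore not covered. For members without a promoter window in the RefSeq table none is shown.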

Additional observations from a re-analysis of the deposited data

Results flagged for a closer look

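APOC3 and APOM were singled out because the guide effect in footprints differed from that in input by a test of the difference itself (limma interaction, adjusted p = 0.0437 for each). With the culture as a replicate block neither passed (limma adjusted p = 0.253 for APOC3 and 0.142 for APOM), nor did any of the 8002 genes tested (606 at an unadjusted limma p under 0.05). APOC3 footprints were at 298.4, 124.0 and 56.6 TPM in sgMETTL16, against 0 in sgNS, and its input at 78.0, 52.4 and 58.9 TPM in sgMETTL16, against 81.5 TPM in sgNS. APOM footprints were at 480.6, 151.3 and 124.2 TPM in sgMETTL16, against 0 in sgNS, and its input at 359.8, 215.6 and 204.7 TPM in sgMETTL16, against 198.6 TPM in sgNS. Both rest on the 0 in the single sgNS footprint library, where 27.3% of protein-coding genes with an input of 50 to 400 TPM were also listed at 0. Most genes of that range had less input in sgNS than APOM.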

How the results depend on the processing

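Log2 changes that turned direction are given by setting. In the input, no filter gave APOE 0.13 and APOH 0.021, and TPM as deposited gave APOA1 0.21, APOA2 0.36, APOC1 0.22, APOE 0.52, APOH 0.41 and APOM 0.34. TPM as deposited called 23 genes in place of 310, and rescaling over protein-coding genes called 1 member, APOA4. Leaving out 1 culture gave 110 to 664 genes and 0 to 2 members, with APOE from -0.21 to 0.13, APOH from -0.28 to 0.093 and APOM from -0.39 to 0.051.

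In footprints, TPM as deposited gave APOB -0.058, and centring on the median tested gene gave APOA1 -1.70, APOA2 -1.22, APOB -2.19 and APOE -1.57. The 608 calls became 0 with that centring (1189 genes at an unadjusted limma p under 0.05) and without an intensity trend (1164). They also became 0 without any 1 sgMETTL16 culture (1420 to 1942), where APOH ran from -0.37 to 0.54. Calls remained with a pseudocount of 10 (485 genes called), no filter (607) and TPM as deposited (580). The limit to genes above 0 in all 4 libraries gave 0 calls (88 at an unadjusted limma p under 0.05). Of the 608 calls, 543 were listed at 0 in every sgMETTL16 library and 64 in sgNS. That limit left these genes out, so it does not test their calls.

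For translation efficiency, the 2 members called became 0 under every alternative that tested them. These were the replicate block (0 genes in place of 59), a pseudocount of 10 (7 genes), no filter (33), TPM as deposited (14), and without any 1 culture (0). The limit to genes above 0 in all 4 footprint libraries also gave 0 calls, but it left out both members and all 59 genes called, so it does not test those calls. A pseudocount of 10 gave APOB -0.022 and APOH -0.27, no filter gave APOH -0.13, and TPM as deposited gave APOB -0.81 and APOH -1.07. Without 1 culture APOH ran from -0.21 to 0.45 and APOC2 from -2.51 to 0.65.

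For footprint over input, TPM as deposited called 1 member in place of 5 and 637 genes in place of 2445, with APOB at 0.27. Genes with a mean input of 100 TPM or more, chosen after the data were seen, gave 228 calls. Leaving out 1 culture gave 2 to 4 members and 522 to 663 genes, with APOC3 from -2.38 to 0.47. The replicate block changed no call of a member here other than that of APOC1. Apart from the filters and the samples left out, the cause of these changes was not tested. Depth is unknown, and the footprint zeros limit APOC1, APOC2, APOC3 and APOM most.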
